A study of Mus musculus with 2 samples.

Results

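The genes described here are the Cep, Ift, Bbs and Nphp genes, which build the centrosome and the cilium, set against the peaks of β-hydroxybutyrylated histone H3 lysine 9 (H3K9bhb) in mouse CD8+ memory T cells. They are the 63 of 21900 protein-coding RefSeq genes whose symbol is Cep, Ift, Bbs or Nphp followed by a number: 38 Cep, 14 Ift, 8 Bbs and 3 Nphp genes. A peak was assigned to every gene that contained its summit, the 1 bp position of highest signal, or lay within 5 kb of it. The symbol groups were chosen by name with the peak calls of this library already known, and the genes with a peak were selected on the summit positions of the same list. The numbers of genes with a peak and their scores are therefore descriptions, without a test.

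The profiled group was 1 chromatin immunoprecipitation (ChIP) library of CD8+ memory T cells from spleens of OT-I mice on the C57BL/6 strain, whose T cells carry a transgenic receptor for an ovalbumin peptide. The cells were activated for 3 days with peptide (200 ng/ml) and interleukin-2 (10 ng/ml), cultured for 4 days with interleukin-15 (10 ng/ml), and treated for 3 days with β-hydroxybutyrate (BHB), the ketone body from which the mark is formed. An input DNA library was made from cells with the same labels, and each library was stated to hold 70 M reads. Both libraries came from treated cells, and no untreated culture was analysed here, so no peak here can be read as a change caused by BHB. The peak list held 2315 summits of 2204 peaks. No peak was called at the 9 CD8 T cell marker genes (among them Cd3e and Cd8a), 5 B cell markers or 5 myeloid markers. The list therefore does not tell these cell types apart. The exact intervals of these shares reach 33.6% for the 9 genes and 52.2% for each set of 5. They include the 11.4% of all protein-coding genes that had a peak, so the absences are not a result about the marker genes. The median score was 5.04, with quartiles of 3.33 and 6.78, where the score is the authors' −log10 p or q value at the summit. Mitochondrial DNA, which is not wrapped on histones, held 17 of the summits, so a call by itself does not show the mark.

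The centrosome is a pair of centrioles in a matrix that nucleates microtubules, and most Cep proteins are its structural parts. When a centriole docks at the membrane it can grow a cilium, which intraflagellar transport (IFT) particles build and the BBSome, a complex of Bbs proteins, keeps stocked with membrane proteins, while nephrocystins (Nphp proteins) form part of the gate at its base. T cells have no primary cilium, but their centrosome moves to the contact with a target cell, and some IFT proteins are known to carry T cell receptors there.

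In the BHB-treated cells 17 of the 63 genes (27.0%, exact 95% interval 16.6 to 39.7) had a peak, and 46 had none. Of all protein-coding genes, 2489 (11.4%) had one. The Cep genes held most of the peaks, with 12 of 38 genes (31.6%, interval 17.5 to 48.7), and 2 of the 3 Nphp genes had a peak (66.7%, 9.43 to 99.2). Of the Ift genes 3 of 14 had a peak (21.4%, 4.66 to 50.8), and of the Bbs genes 0 of 8. A count of 0 in 8 genes is compatible with a true share as high as 37.5% (3 counts over 8) or 36.9% (exact). The intervals cover counting error only and treat genes as independent. They describe the precision of each share, and neither the difference between the 4 symbol groups nor that from all genes was tested. Counting only summits inside the gene body, 13 of 63 members had a peak (20.6%), against 8.71% of all protein-coding genes.

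**Figure D1:**
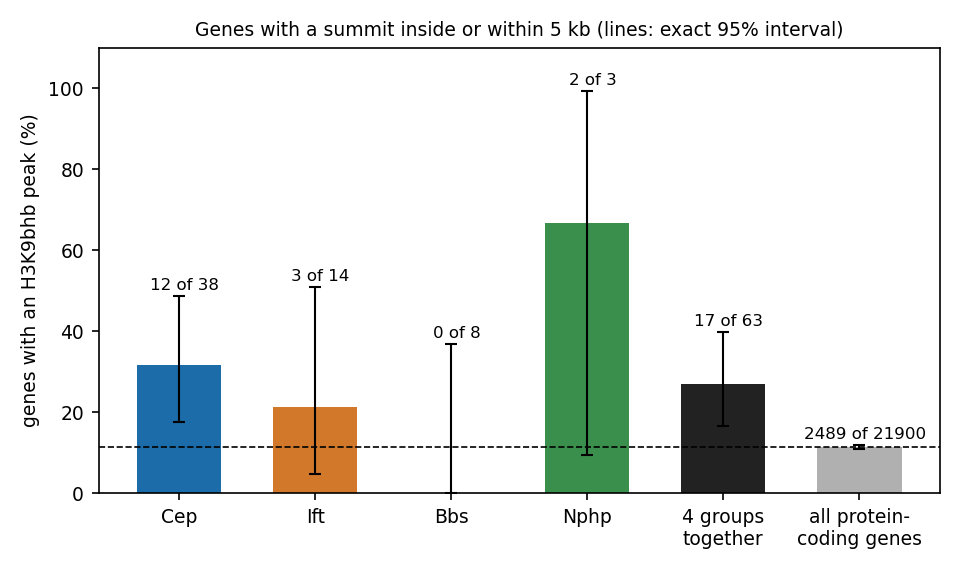
Share of genes with an H3K9bhb peak (vertical axis, %) in the Cep, Ift, Bbs and Nphp groups, in the 4 groups together and in all protein-coding genes; bars give the share, lines the exact 95% interval and the dashed line the 11.4% of all genes. The Cep bar stands at 31.6%, the Bbs bar at 0, and the interval of the 3 Nphp genes covers most of the axis.

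Of 52 members with an annotated start, 42 (80.8%) held 10 or more CpG dinucleotides in the 250 bases upstream, against 50.4% of all genes. The windows printed first come from Cep and Ift genes with a peak only. Below are the 250 bases before the annotated start (RefSeq, GRCm38.p6, gene strand, 5′ to 3′) of the 4 genes with the highest scores among those with a summit within 1 kb of an annotated start, with each CpG dinucleotide in capitals. CpG-rich stretches of this kind, called CpG islands, lie at the starts of many widely expressed genes.
Cep70 (chr9:99243091-99243340, plus strand): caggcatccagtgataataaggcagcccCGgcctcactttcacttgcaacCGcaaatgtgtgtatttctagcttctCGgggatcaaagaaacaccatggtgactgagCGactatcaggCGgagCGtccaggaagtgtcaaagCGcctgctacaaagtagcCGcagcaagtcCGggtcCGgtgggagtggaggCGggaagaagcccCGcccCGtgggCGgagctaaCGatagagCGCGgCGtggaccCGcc
Cep170 (chr1:176813954-176814203, minus strand): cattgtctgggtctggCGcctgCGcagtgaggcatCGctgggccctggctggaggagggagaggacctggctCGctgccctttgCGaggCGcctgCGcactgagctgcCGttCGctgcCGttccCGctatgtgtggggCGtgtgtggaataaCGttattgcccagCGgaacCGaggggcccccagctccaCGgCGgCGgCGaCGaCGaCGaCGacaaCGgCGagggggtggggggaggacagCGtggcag
Cep68 (chr11:20249425-20249674, minus strand): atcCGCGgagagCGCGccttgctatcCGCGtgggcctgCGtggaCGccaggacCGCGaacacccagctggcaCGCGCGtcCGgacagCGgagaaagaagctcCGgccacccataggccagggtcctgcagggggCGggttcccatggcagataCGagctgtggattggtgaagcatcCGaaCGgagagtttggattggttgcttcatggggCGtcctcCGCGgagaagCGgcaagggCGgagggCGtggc
Ift88 (chr14:57423821-57424070, plus strand): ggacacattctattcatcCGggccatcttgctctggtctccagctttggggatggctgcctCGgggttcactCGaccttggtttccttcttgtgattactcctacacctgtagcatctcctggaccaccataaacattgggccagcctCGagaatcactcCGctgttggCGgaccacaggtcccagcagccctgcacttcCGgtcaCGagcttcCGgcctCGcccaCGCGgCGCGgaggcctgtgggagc

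These 4 windows hold 19 CpG at Cep70, 26 at Cep170, 26 at Cep68 and 14 at Ift88. Of the members without a peak, the windows with the fewest and the most CpG are shown for contrast, chosen after their values were seen. Nphp4, which encodes a nephrocystin, has 4 CpG, and Cep63, a partner of Cep152 in centriole duplication, has 38 and still no peak. Nphp4 has 3 annotated starts, and only the window of its outermost start was counted.
Nphp4 (chr4:152476456-152476705, plus strand): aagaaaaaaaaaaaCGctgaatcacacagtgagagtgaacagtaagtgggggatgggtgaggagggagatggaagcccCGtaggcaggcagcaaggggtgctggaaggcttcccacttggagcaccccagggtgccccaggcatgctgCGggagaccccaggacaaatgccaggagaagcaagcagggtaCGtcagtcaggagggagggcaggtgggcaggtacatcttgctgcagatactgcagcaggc
Cep63 (chr9:102626125-102626374, minus strand): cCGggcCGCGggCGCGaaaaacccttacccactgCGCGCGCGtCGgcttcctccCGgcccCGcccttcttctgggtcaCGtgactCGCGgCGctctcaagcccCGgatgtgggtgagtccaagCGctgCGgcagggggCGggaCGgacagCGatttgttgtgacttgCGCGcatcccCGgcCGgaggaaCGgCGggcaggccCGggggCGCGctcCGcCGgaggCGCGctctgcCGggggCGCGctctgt

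Cep250 and Cep68, which encode parts of the linker that joins the centrioles, each had a peak. Cep250 (chromosome 2, 155956285 to 155998900), which encodes the docking protein C-Nap1 at the centriole base, had a summit at 155956699, 141 bp downstream of its start, with a score of 5.41. Cep68 (chromosome 11, 20227037 to 20249424), whose product forms fibres of the same linker, had a summit at 20249255, 169 bp downstream of its start, with a score of 9.12. Of all peaks, 43.7% scored as high as the one at Cep250 or higher, and 11.6% as high as the one at Cep68. Crocc and Cntln, which encode the linker proteins rootletin and centlein, had no peak. These genes were put together by function after their peaks were known.

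The highest score at a Cep gene was at Cep70 (chromosome 9, 99183584 to 99325879), which encodes a γ-tubulin-binding centrosome protein. Its summit at 99243375 scored 13.4, which 2.18% of peaks reached or passed. It lay 59791 bp from the nearer end of the annotated gene span but 34 bp downstream of the annotated start that RefSeq's promoter table gives inside that span. Cep170 (chromosome 1, 176729072 to 176813979), encoding a protein of the subdistal appendages that anchor microtubules, followed with a score of 10.5 at 176813968, 15 bp upstream of its start; 6.03% of peaks scored as high. The next gene along, Sdccag8, begins 692 bp from this summit. It encodes a centrosome protein whose human counterpart is mutated in nephronophthisis. This summit was counted for both genes.

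The 2 Cep57 genes, which encode proteins of the pericentriolar matrix, had peaks outside their own bodies. At Cep57 (chromosome 9, 13807783 to 13827407) the summit at 13828094 lay 687 bp outside the gene, 987 bp upstream of its nearest start, and 378 bp downstream of a start of Fam76b on the other strand; its score was 3.33. At Cep57l1 (chromosome 10, 41718840 to 41809868) the summit at 41810151 scored 5.51 and lay between that gene's start, 283 bp away, and the start of Sesn1, 423 bp away on the other strand. Sesn1 encodes a sestrin, a stress-induced inhibitor of mTORC1. The Cep57 summit lay inside Fam76b, and counting by nearest gene gives it to Fam76b and not to Cep57. The Cep57l1 summit lay outside both of its genes and nearer to Cep57l1. For both summits the peak list alone does not tell which of the 2 genes the peak belongs to.

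Cep83 (chromosome 10, 94688624 to 94790336), encoding a distal appendage protein that docks the centriole at the membrane, had a summit at 94688731 that scored 2.08, a score that 98.5% of peaks reached. It lay 59 bp upstream of the Cep83 start and 118 bp upstream of the start of Cep83os, a non-coding gene on the other strand. Of the 3 members assigned to the distal appendages, Cep83 had a peak (33.3%, interval 0.840 to 90.6) and Cep89 and Cep164 had none. That interval includes the 11.4% of all genes. Cep192 (chromosome 18, 67800054 to 67885170), the scaffold that recruits Plk4 and γ-tubulin to the centriole, had a summit at 67800285, 231 bp inside the gene, with a score of 3.33. It was the 1 gene with a peak among 8 of centriole duplication and length control (12.5%, interval 0.316 to 52.7), a share close to the 11.4% of all genes. Cep63, Cep76, Cep97, Cep120, Cep135, Cep152 and Cep295 had none.

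Other Cep genes with a peak encode proteins of several places. Cep43 (chromosome 17, 8165143 to 8196477), encoding the ciliogenesis protein FOP, had a summit at 8165715, 197 bp downstream of its start (score 5.63). Cep85l (chromosome 10, 53273441 to 53379883) had a summit at 53379430, 453 bp downstream of its start (score 3.33), and Cep126 (chromosome 9, 8076460 to 8134479) had one at 8134184, 262 bp downstream (score 2.49). Both encode centrosome proteins. The Cep57, Cep192 and Cep85l summits carried a score that 55 peaks share, so they cannot be ranked against one another.

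Peaks at IFT genes were few, and 2 of the 3 had their summit inside a neighbouring gene. Ift88 (chromosome 14, 57424064 to 57517936), a core subunit of the IFT-B complex that moves cargo towards the ciliary tip, had a summit at 57424183, 112 bp downstream of its start. Its score of 7.95 was reached by 17.2% of peaks. Ift140 (chromosome 17, 25016083 to 25099499), a core subunit of the IFT-A complex of return transport, had a summit at 25015532 (score 6.63), 554 bp upstream of its start. That summit lay inside the neighbouring gene Cramp1l, 302 bp upstream of the Cramp1l start that the promoter table gives. Ift46 (chromosome 9, 44770456 to 44792714), another IFT-B subunit, was counted through a summit at 44767530 (score 2.77) that was 2926 bp outside it and inside Arcn1, which encodes a coatomer subunit, 278 bp from an end of that gene. Counting each summit only for its nearest gene left Ift88 as the 1 Ift gene of 14 (7.14%) with a peak, against 9.36% of all protein-coding genes.

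By complex, peaks were called at 2 of 11 IFT-B genes (18.2%, interval 2.28 to 51.8), Ift46 and Ift88, and at 1 of 3 IFT-A genes (33.3%, 0.840 to 90.6), Ift140. Both intervals include the 11.4% of all genes. The IFT-B genes without a peak were Ift20, Ift22, Ift27, Ift52, Ift57, Ift74, Ift80, Ift81 and Ift172, and the IFT-A genes without one were Ift43 and Ift122. Ift20, whose product carries T cell receptors to the contact with the target cell, was 246 kb from the closest summit.

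No Bbs gene was near a peak. The BBSome subunit genes Bbs1, Bbs2, Bbs4, Bbs5, Bbs7 and Bbs9 and the genes of the chaperonin-like assembly factors Bbs10 and Bbs12 lay between 55.8 and 303 kb from the closest summit, with a median of 92.8 kb. The median length of the Bbs genes was 26.1 kb, against 42.7 kb for the Cep genes and 69.6 kb for the Ift genes. With 8 genes, the 11.4% found over all genes is inside the interval.

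**Figure D2:**
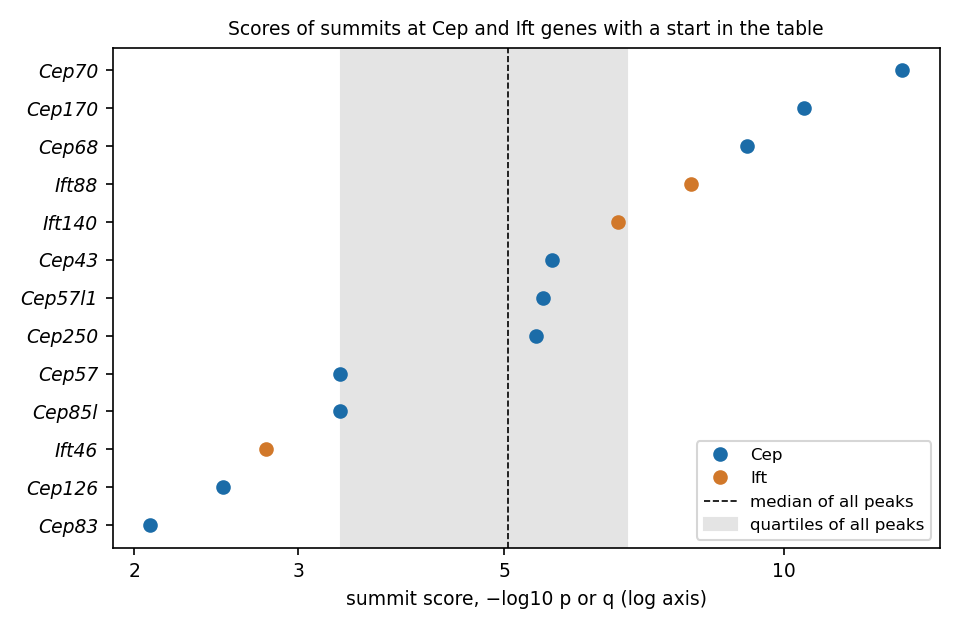
Scores (−log10 p or q, log axis) of the summits inside or within 5 kb of the 13 members that have a peak and a start in the promoter table, coloured by group; the dashed line is the median of all peaks and the grey band their quartiles. Cep70 leads with 13.4, Cep170 and Cep68 follow, and Cep83 has the lowest score, 2.08.

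The scores of the 17 genes spread over much of the list. The highest score per gene had a median of 5.41 and quartiles of 3.33 and 7.95, beside a median of 5.04 and quartiles of 3.33 and 6.78 over all 2489 genes with a peak. Restricted to the 50% of peaks with the highest scores, 10 of 63 members had a peak (15.9%), against 5.77% of all protein-coding genes. In the top 10% of peaks 3 of 63 did (4.76%), among them Cep70 and Cep170, against 1.27% of all genes.

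Where the start of transcription was given, the summits lay at it. Of the 63 genes 52 have a start in the promoter table, and of the 17 with a peak 13 do. The highest summit was within 1 kb of a start in 12 of these 13 (92.3%, interval 64.0 to 99.8), beside 1587 of 2032 genes with a peak in the whole list (78.1%). The exception was Ift46. Over all 52 genes with a start, 12 had a summit within 1 kb of it (23.1%), against 9.18% of protein-coding genes with a start in the table. None had its summit at the opposite end of the gene (0 of 13), and over all genes with a peak 66 of 2032 (3.25%) did. The 12 summits ran from 987 bp upstream to 453 bp downstream, with a median of 73 bp downstream, and 7 of them were downstream of the start. Over all 1587 genes the median was 108 bp downstream. The interval of the 13 genes includes the share of all genes, so their position relative to the start was not shown to be particular to them.

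**Figure D3:**
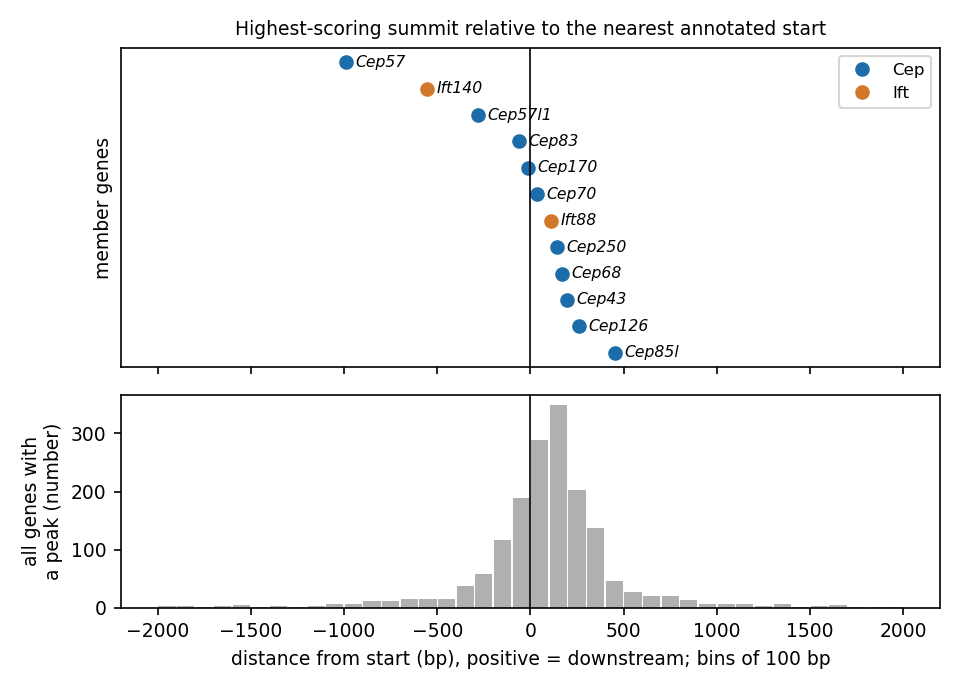
Distance (bp, positive downstream) of the highest-scoring summit from the nearest annotated start, for each member within 2 kb of one (upper panel, coloured by group, height only separates the genes) and as a count per 100 bp for all genes with a peak (lower panel). Cep170, Cep70 and Cep83 lie closest to the start, and Cep57 lies farthest, 987 bp upstream.

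Many of these summits were shared with a neighbour. A summit of 8 of the 17 genes (47.1%, interval 23.0 to 72.2) was also in reach of another protein-coding gene, beside 931 of 2489 (37.4%) over all genes with a peak. Among them were Cep57, Cep57l1, Cep170, Cep192, Ift46 and Ift140. A start on the other strand lay within 1 kb of the summit in 4 of the 12 genes with a summit at their start (33.3%, 9.92 to 65.1), namely Cep57, Cep57l1, Cep83 and Ift140, beside 416 of 1587 (26.2%) over all genes. Both background shares are inside the intervals. Neighbours without a start in the promoter table, such as Sdccag8 beside Cep170, could not enter the counts of starts on the other strand. Those counts are therefore minimums, for the members and for all genes. Counting each summit only for its nearest gene, 14 of 63 members had a peak (22.2%), against 9.36% of all genes.

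By median, members with and without a peak both held more CpG at their starts than all genes did. The 250 bases upstream held a median of 20 CpG (range 10 to 39) in the 13 members with a peak and 18 (range 4 to 38) in the 39 without, against a median of 10 in all 17492 protein-coding genes with a start in the table. Over all genes the median was 19 with a peak and 8 without. All 13 members with a peak held 10 or more CpG, against 29 of the 39 without (74.4%). Over all genes these shares were 84.1% with a peak and 46.0% without. Among genes with 15 or more CpG, 10 of 35 members had a peak (28.6%, interval 14.6 to 46.3), against 1389 of 6405 of all genes (21.7%). Among those with 5 to 14 CpG, 3 of 16 members did (18.8%, 4.05 to 45.6), against 502 of 5121 (9.80%). In both classes the share of all genes is inside the members' interval. The part of CpG content in the peak calls was not tested.

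**Figure D4:**
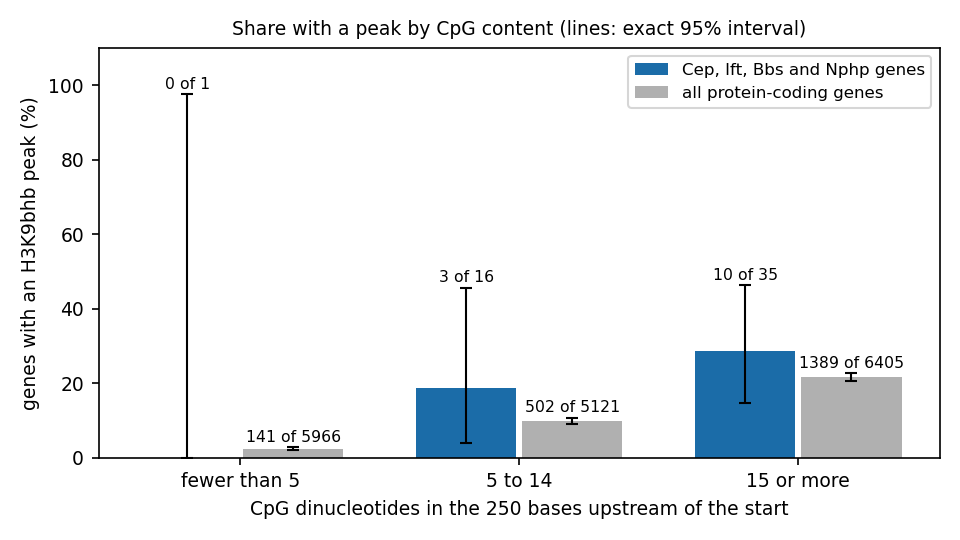
Share of genes with a peak (vertical axis, %) by number of CpG dinucleotides in the 250 bases upstream of the outermost annotated start, for the members (left bar of each pair) and all protein-coding genes (right bar); lines are exact 95% intervals. The share of all genes climbs with CpG count, from 2.36% to 21.7%, and 35 of the 52 members are in the class with 15 or more.

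Gene length moved with the peak calls as well. The 17 members with a peak had a median length of 58.0 kb and the 46 without one of 39.0 kb. Over all protein-coding genes the medians were 31.3 kb with a peak and 15.8 kb without. Of genes between 20 and 100 kb, 13 of 43 members had a peak (30.2%, interval 17.2 to 46.1), against 15.8% of all genes of that length. At 100 kb or longer, 3 of 8 members had one (37.5%, 8.52 to 75.5), against 16.6%. Under 20 kb, 1 of 12 members (Cep57) had a peak (8.33%, 0.211 to 38.5), against 7.46%.

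Short motifs of transcription factors that act at ciliary or ubiquitous promoters were searched on both strands of the same 250 bases. GTTGCC, part of the X-box bound by the RFX factors that drive ciliary genes, was found in 2 of 13 members with a peak and 6 of 39 without (15.4% each), against 10.6% of all promoters. CCAAT, the NF-Y box, was found in 6 of 13 with a peak and 20 of 39 without, against 36.5% of all promoters. CCGGAA, the core of ETS sites, was found in 1 of 13 with a peak and 13 of 39 without, against 15.2% of all. GCATGCG, the core of NRF1 sites, was found in 2 of 13 and 2 of 39, against 3.79% of all. In the printed windows, Ift88 held CCGGAA on the opposite strand 34 to 39 and 48 to 53 bases upstream of its start and CCAAT 111 to 115 bases upstream, and Cep68 held CCAAT 53 to 57 and 83 to 87 bases upstream, also on the opposite strand. The Cep70 and Cep170 windows held none of the 4 motifs. A match in so small a window is a description of letters and not of binding.

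Peaks were also called at genes of the same structures that carry other symbols. Over 6 lists with 120 distinct genes, 22 had a peak (18.3%, interval 11.9 to 26.4), against 11.4% of all protein-coding genes. The lists were written with earlier results of these data known, so these counts are descriptions and the difference was not tested. Of 20 genes of centriole assembly 4 had a peak (20%, 5.73 to 43.7): Sfi1 (58.0), a centrin-binding protein whose summit lay 9914 bp from a gene end, Poc1b (8.59), a centriole wall protein, Spice1 (7.89) and Plk4 (4.26), the kinase that starts centriole duplication. The Sfi1 score lay far above the upper quartile of all peaks, 6.78, and whether this call reflects the mark was not tested. Of 16 genes of appendages and satellites 4 did (25%, 7.27 to 52.4): Pcm1 (6.63), the scaffold of centriolar satellites, Nin (5.11), encoding ninein, Odf2 (2.90) and Ninl (2.77). Of 24 genes of the pericentriolar matrix and of microtubule nucleation, Haus genes and mitotic kinases among them, 3 did (12.5%, 2.66 to 32.4), near the 11.4% of all genes: Tubgcp3 (7.95), Tubgcp2 (3.50) and Tubgcp4 (2.06). These encode γ-tubulin complex subunits. Tubg1, Tubg2, Tubgcp5, Tubgcp6, Mzt1 and Mzt2, which encode γ-tubulin and other parts of its complexes, had no peak.

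Ciliary genes under other symbols also included some with a peak. Of 24 further IFT subunits, adaptors and motors 3 had one (12.5%, interval 2.66 to 32.4), near the 11.4% of all genes: Wdr60 (10.4), a subunit of the dynein-2 motor, Tulp3 (5.11), an adaptor of IFT-A, and Kif3b (3.17), a subunit of the kinesin-2 motor. Of 11 BBSome-linked genes 2 had one (18.2%, 2.28 to 51.8): Sdccag8 (10.5), through the summit it shares with Cep170, and Arl6 (3.52), the GTPase that recruits the BBSome. Of 26 genes of the transition zone and of nephronophthisis 6 had one (23.1%, 8.97 to 43.6): Anks6 (7.95), Anks3 (6.78), Tmem237 (5.04), Arl13b (4.54), a GTPase of the ciliary membrane, Nek8 (2.15) and Iqcb1 (2.08).

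The members without a peak were far from the nearest one. Their distances to the closest summit ran from 10.6 to 2001 kb with a median of 148 kb. Just inside the 5 kb reach was Ift46, at 2926 bp, and just outside was Cep295 at 10.6 kb, followed by Ift172 and Cep170b at 32.8 kb each, so no gene lay between 2926 bp and 10 kb. Nphp4 was 179 kb from its closest summit. The Cep genes without a peak not named above were Cep19, Cep20, Cep41, Cep44, Cep55, Cep72, Cep78, Cep85, Cep95, Cep112, Cep128, Cep131, Cep162, Cep170b, Cep290, Cep295nl and Cep350.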

How the data were processed

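The deposited file used was the peak list of the H3K9bhb ChIP library. The submitters' processing notes name MACS2 2.1.2, Bowtie2 2.3.5, Trimmomatic 0.39 and FastQC 0.11.8, and the build mm10. Whether the input served as control, and with which settings, is not stated there. The deposited values are −log10 p or q values per summit, and which of the 2 is not given. Read depth per peak is unknown, so scores were used only within the list.

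Summits were set against RefSeq genes and starts of GRCm38.p6, the assembly mm10 denotes; 126 protein-coding genes have positions in the first 3 Mb of a chromosome name and may lie on other scaffolds. With 1 ChIP library there is no replicate and no test. Intervals are exact (Clopper-Pearson, 95%). A few of the 17 genes enter the counts only and are left unnamed; other lists name up to 6 each by score. Members, lists and roles were chosen with earlier results of these data known. The planned motif windows used the outermost start, and 9 alternatives were tried. Counting was tested on simulated summits. Scripts ran in Python 3.11.15 with pandas 2.3.3, numpy 2.4.6, matplotlib 3.10.9 and scipy 1.17.1.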

Additional observations from a re-analysis of the deposited data

How the results depend on the processing

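The count of 17 genes with a peak was 13 with summits inside genes only, 16 with 2 kb flanks, 17 with 10 kb flanks, 14 by nearest gene, and 12 of 52 within 1 kb of an annotated start; the share stayed above that of all genes counted the same way in each. Stricter score limits lowered the counts because fewer peaks were used. The top 50% of peaks reached 5.77% of all genes, 10 members (15.9%), 7 Cep (18.4%), 2 Ift (14.3%) and 1 Nphp gene (33.3%). The top 10% reached 1.27% of all genes, 3 members (4.76%), 2 Cep (5.26%), 0 Ift and 1 Nphp gene (33.3%). The Ift count of 3 was 1 with summits inside genes only (7.14%, against 8.71% of all genes). By nearest gene the Ift count was also 1 (7.14%, against 9.36%). Ift46 and Ift140 dropped out both times because they were reached from a neighbour. The Nphp count was 0 within 1 kb of a start, because 1 of the 3 genes has a start in the table. The Bbs count was 0 under every alternative. Leaving out peaks that scored over 20, an alternative chosen after seeing the data, changed none of the member counts, while the number of all genes with a peak was 2473, against 2489 in the full list; the other gene lists were not recounted that way, and Sfi1 among them rests on a summit scoring 58.0. No paired analysis was possible because there is 1 ChIP library and no replicate. Without depth per peak or a second library, the absence of a call at a gene cannot be told apart from too little signal to call.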
